A study of Mus musculus with 10 samples.

Results

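The homeostatic-like cells of brain slices cultured for 3 weeks were 1220 of the 4893 cells kept from the 2 slice 3 weeks libraries and of the 19059 cells kept from all 10 libraries of the series. A cell was counted as homeostatic-like when *P2ry12* and *Tmem119* together made up at least 0.2% of its UMIs (unique molecular identifiers, which count captured mRNA molecules), once barcodes above 5% of UMIs from mitochondrial genes, below 400 detected genes or above 30000 UMIs had been dropped. The values of these 2 genes chose the cells, so they are described below without a test. *P2ry12* and *Tmem119* encode a purinergic receptor and a membrane protein that mark resident microglia. Homeostatic microglia of the healthy adult brain are kept in that state by TGF-beta and CSF1 receptor signalling and by transcription factors such as Sall1, and they lose this gene program when they are placed in culture or meet damaged tissue. Under such conditions microglia turn on a disease-associated program that includes *Apoe*, *Spp1*, *Gpnmb* and *Lpl*. The question addressed here was how the slice cells with the most *P2ry12* and *Tmem119* compare with the other cells of the same slices and with adult microglia, and what stays different from adult.

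Microglia of C57BL/6 mice were sorted by FACS as live CD11b high, CD45 intermediate cells and sequenced as 10x Genomics 3′ libraries, with 2 libraries in each group. The slice 3 weeks cells came from coronal brain slices of pups taken on postnatal days 1 to 4, cut without the cerebellum. The slices were kept for 3 weeks in medium with horse serum and 10 ng/mL human PDGF. The paper pooled slices where required when microglia were isolated, and does not state the pooling for these libraries. The adult cells came from mice of 10 to 15 weeks. Slice and adult cells therefore differed in the age of the animal, in dissection and in culture together, and these cannot be told apart here. Mixed glial *in vitro* cultures of neonatal cortex grown for 3 weeks, and slices at 1 day and 1 week, shared the fitted model and are given where a level is compared across conditions. The labels carry 2 study ids: replicate 1 of the adult and slice 3 weeks groups has the first id, and all other libraries have the second. The labels do not say that the libraries of a group came from separate cultures or animals. The paper describes 2 independent samples per group, but does not say whether these were separate cultures or animals. The p-values therefore measure the spread between these libraries. The kept cells of the 4 adult and slice 3 weeks libraries held between 6798474 and 22332658 UMIs per library, and homeostatic-like cells held 2068453 and 4349144 of them (replicates 1 and 2).

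Homeostatic-like cells made up 29.7% of slice 3 weeks replicate 1 (342 of 1153 cells, 95% exact binomial interval 27.0 to 32.4%) and 23.5% of replicate 2 (878 of 3740 cells, 22.1 to 24.9%), a mean of 26.6% ± 4.37 (SD, n = 2). The intervals cover counting error only. By the same rule, 99.4% and 99.7% of adult cells qualified. Few cells did so in the other cultures, with 1 of 2417 and 0 of 2682 *in vitro* cells (a count of 0 allows up to 0.112%), 27 of 518 and 2 of 1014 cells at 1 day, and 7 of 148 and 2 of 61 cells at 1 week.

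The slice cells formed a continuum across the threshold. The lowest homeostatic-like cell had 0.20048% and 0.20002% of its UMIs in the 2 genes, and the highest cell left out had 0.1996% and 0.1998%. Within 0.02 percentage points of the threshold lay 36 and 100 homeostatic-like cells and 53 and 103 others. The median share was 0.328% and 0.326% in homeostatic-like cells against 1.07% over all adult cells, and only 1 and 5 slice cells reached that adult median. Homeostatic-like cells were shallower than the other slice cells, with medians of 5711.5 and 4426 UMIs against 6376 and 5691, and deeper than adult cells, with 3257 and 1858. The counts with every cell thinned to 1800 UMIs are given with the alternatives. The 2 slice libraries shared 4 cell barcodes, and a slice and an adult library shared 3 to 21.

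**Figure D1:**
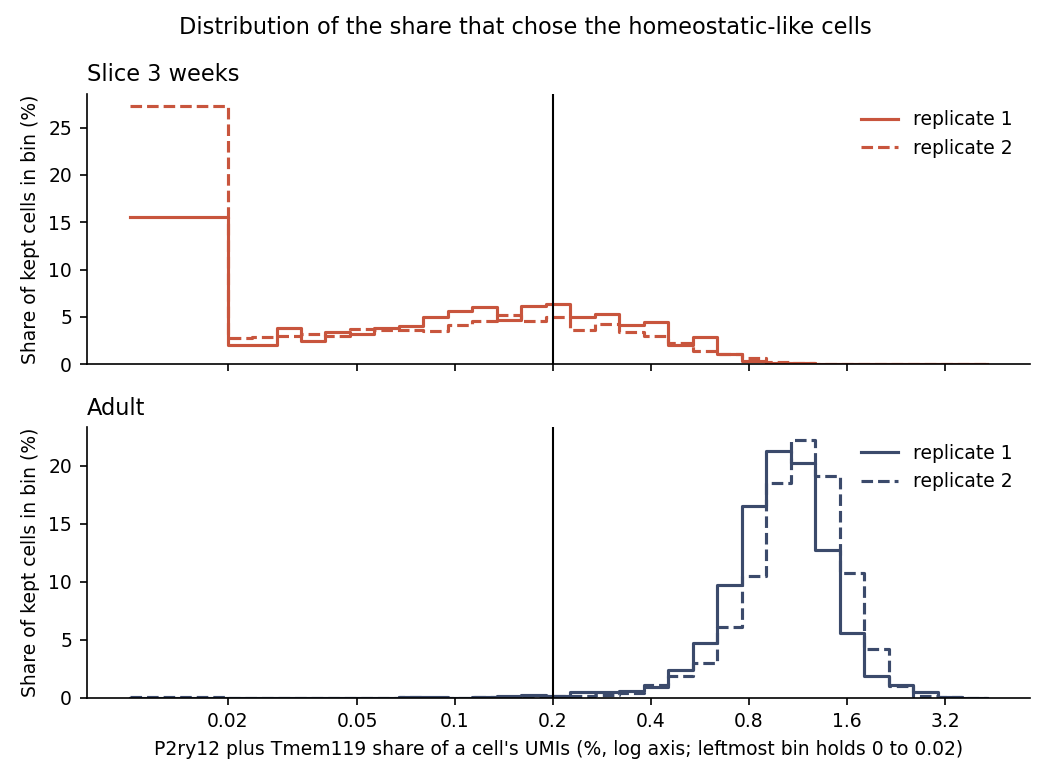
Share of kept cells (y axis, %) by the percent of a cell's UMIs in *P2ry12* plus *Tmem119* (x axis, log scale, leftmost bin from 0 to 0.02%) in the slice 3 weeks (top) and adult libraries (bottom), with solid and dashed lines for replicates 1 and 2 and a vertical line at 0.2%. Slice cells spread across the line without a gap, with 29.7% and 23.5% to its right, while 99.4% and 99.7% of adult cells lie to its right.

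The genes of the rule stayed below their adult level in the cells it chose. *P2ry12* stood at 2587 and 2682 CPM in homeostatic-like cells, 556 and 464 CPM in the other slice cells and 7148 and 8275 CPM in adult cells (CPM, counts scaled to a common library total with TMM factors, replicates 1 and 2). *Tmem119* stood at 1320.4 and 1262 CPM, 343 and 224 CPM and 2932 and 2985 CPM in the same order. Homeostatic-like cells thus had 34.2% of the mean adult level of *P2ry12* and 43.6% of that of *Tmem119*. When the cells were chosen on a random split of their UMIs and measured on the remaining UMIs, *P2ry12* was at 2149 and 2187 CPM in the chosen cells and at 511 and 438 CPM in the others, against 2379 and 2438 CPM and 459 and 387 CPM with all UMIs (plain CPM). In the other cultures *P2ry12* was at 72.1 and 51.8 CPM *in vitro*, 177 and 87.5 CPM at 1 day and 476 and 445 CPM at 1 week.

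The 2 marker genes that the rule did not use, *Olfml3* and *Sparc*, were at or above adult levels. *Olfml3*, which encodes a secreted olfactomedin-like protein, was at 3663 and 2864 CPM in homeostatic-like cells and 3118 and 2579.8 CPM in adult cells. These ranges overlap and the difference did not pass the test (log2 fold change 0.20 ± 0.22 (SE), adjusted p = 0.535). In the other slice cells it was at 1942 and 1225 CPM, below both adult libraries, and that fall passed (log2 fold change -0.85, adjusted p = 0.021). *Sparc*, which encodes a matricellular glycoprotein, was at 4111 and 4194 CPM in homeostatic-like cells, 1977 and 2160.2 CPM in the other slice cells and 3149 and 2516 CPM in adult cells. Both homeostatic-like values lay above both adult values and both values of the other cells below them, although neither difference from adult passed the test (log2 fold change 0.55 ± 0.47 (SE), adjusted p = 0.415 for homeostatic-like cells, -0.45 with adjusted p = 0.476 for the others). Across the cultures *Sparc* ran from 1.89 and 0.205 CPM *in vitro* through 465 and 317 CPM at 1 day to 821 and 972 CPM at 1 week. *P2ry12* and *Tmem119* exceed the other slice cells by the choice of cells, so the label homeostatic-like rests on *Olfml3* and *Sparc*, both higher than in the other cells of the same library.

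The promoters of 4 genes are shown because they stand for the 4 patterns described here: *P2ry12* chose the cells, *Sparc* was not below adult, *Slc2a5* was still lower and *Gpnmb* higher than in adult cells. Each is the RefSeq window from 250 bases before to 50 after the gene's start (GRCm38.p6), and lies at chr3:59262936-59263235, minus strand, chr11:55420031-55420330, minus strand, chr4:150119094-150119393, plus strand and chr6:49036268-49036567, plus strand, respectively. Capitals mark matches, on either strand, to a PU.1 site (GAGGAAGT), an AP-1 site (TGANTCA) or an E-box (CACGTG), sites of factors that act in myeloid, stimulated and lysosome gene programs.
P2ry12: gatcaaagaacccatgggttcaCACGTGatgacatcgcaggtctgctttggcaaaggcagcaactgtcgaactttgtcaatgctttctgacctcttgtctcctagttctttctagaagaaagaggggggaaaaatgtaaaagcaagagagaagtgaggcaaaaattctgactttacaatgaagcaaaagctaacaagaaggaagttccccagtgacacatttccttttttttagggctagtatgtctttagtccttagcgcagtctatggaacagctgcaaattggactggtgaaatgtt
Sparc: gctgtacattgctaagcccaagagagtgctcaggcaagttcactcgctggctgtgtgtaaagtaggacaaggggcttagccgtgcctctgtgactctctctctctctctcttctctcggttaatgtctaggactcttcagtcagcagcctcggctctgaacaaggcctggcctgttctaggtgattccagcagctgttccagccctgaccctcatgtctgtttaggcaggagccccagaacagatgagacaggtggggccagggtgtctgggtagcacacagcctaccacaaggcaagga
Slc2a5: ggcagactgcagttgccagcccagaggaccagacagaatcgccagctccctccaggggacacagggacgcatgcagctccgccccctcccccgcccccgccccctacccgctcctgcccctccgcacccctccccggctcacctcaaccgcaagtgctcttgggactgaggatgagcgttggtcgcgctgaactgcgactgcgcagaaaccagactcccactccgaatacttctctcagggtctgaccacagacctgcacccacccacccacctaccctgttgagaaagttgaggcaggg
Gpnmb: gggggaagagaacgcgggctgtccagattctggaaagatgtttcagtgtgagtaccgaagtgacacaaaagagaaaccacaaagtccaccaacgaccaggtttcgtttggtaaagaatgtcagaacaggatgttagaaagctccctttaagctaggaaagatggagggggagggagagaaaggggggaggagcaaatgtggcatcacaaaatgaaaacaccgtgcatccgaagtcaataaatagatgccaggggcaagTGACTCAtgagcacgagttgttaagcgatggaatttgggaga
The *P2ry12* window holds 1 E-box, the *Gpnmb* window holds 1 AP-1 match just after the start, and the windows of *Sparc* and *Slc2a5* hold none of these letters. Of the 32851 promoters listed, 1052 (3.2023%) hold the PU.1 letters, 7.81% the AP-1 letters and 7.15% the E-box. The matches are descriptions and say nothing about binding.

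Against adult cells, 1764 genes rose in homeostatic-like cells (14.8% of the 11933 tested) and 1386 fell (11.6%), at an adjusted p under 0.05 and a change over 1.5-fold in edgeR. In all 26.4% of genes were called. The other slice cells, fitted separately against the same adult libraries, had 2424 genes higher (20.3%) and 2133 lower (17.9%), in all 38.2%, and 2198 and 1996 when their UMIs were thinned to the totals of the homeostatic-like cells. When UMI totals replaced the TMM factors (library size alone), the median of all genes shifted by −0.14 on the log2 scale and the calls became 1449 higher and 1966 lower, and those of the other cells 1735 and 3371 with a shift of −0.27. The split between rises and falls thus depends on the scaling.

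The homeostatic gene program was partly present. Of 34 homeostatic genes other than the 2 of the rule, 15 fell against adult in homeostatic-like cells, 1 rose and 18 did not pass (47.1% called, against 26.4% of all genes, and 11.6% of all genes fell), with a median log2 fold change of -0.53 against 0 over all genes tested. In the other slice cells, where 17.9% of all genes fell, 26 fell and 1 rose, with a median of -1.19. The list made up 8.94% and 8.33% of UMIs in homeostatic-like cells, 6.15% and 4.94% in the other cells and 15.8% and 14.7% in adult cells, so homeostatic-like cells lay between the other 2 kinds in each library. The list was chosen with results of these libraries known.

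The C1q genes, *Cd81* and *Cx3cr1* were not called against adult. The CSF1 receptor gene *Csf1r*, named here after its values were seen, was called lower (log2 fold change -0.76, adjusted p = 0.0127). *C1qa*, which encodes a chain of the complement starter C1q, was at 15929.9 and 14798 CPM against 12173 and 10348 CPM in adult cells, a log2 difference of 0.45 ± 0.14 (SE), adjusted p = 0.0363 that stays under 1.5-fold. *C1qb* (13661 and 10586 against 11856 and 11483 CPM) and *C1qc* (13099 and 12989.7 against 10399 and 10590.3 CPM) did not pass the test. *Cd81*, a tetraspanin, had values of 5959 and 5448 CPM in homeostatic-like cells and 5919 and 7353 CPM in adult cells, which did not pass, and its fall in the other cells to 4355 and 3926 CPM did (log2 fold change -0.68). The fractalkine receptor *Cx3cr1* behaved alike, at 1835 and 1667 CPM against 2493 and 2190.5 CPM in adult cells (log2 fold change -0.42 ± 0.15 (SE), adjusted p = 0.057) and 1148 and 983 CPM in the other cells (-1.14, called). An effect called in the other cells and not in homeostatic-like cells is not shown to differ between them, since both share the adult libraries and that difference was not tested.

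Other homeostatic genes stayed far below adult. *Cst3*, encoding the protease inhibitor cystatin C, was at 15067 and 16074 CPM in homeostatic-like cells, 11292 and 9645 CPM in the others and 69762 and 58943 CPM in adult cells, and fell by 2.05 ± 0.24 (SE) on the log2 scale (adjusted p = 1.99e-04). *Upk1b*, encoding a uroplakin tetraspanin, was almost lost, with 0.526 and 1.77 CPM against 147 and 173 CPM (0.717% of adult, 8 against 3021 UMIs). *Slc2a5*, the fructose transporter of microglia, was at 137 and 172 CPM against 759 and 680.5 CPM in adult cells and 32.7 and 32.5 CPM in the other cells. *Selplg*, encoding the selectin ligand PSGL-1, was at 1823 and 1809 CPM against 5347 and 5104 CPM (log2 fold change -1.53 ± 0.30 (SE), adjusted p = 0.00372). The lysophosphatidylserine receptor *Gpr34* was at 1188 and 1009 CPM against 2897 and 3126 CPM (log2 fold change -1.45 ± 0.16 (SE), adjusted p = 1.66e-04). *Siglech* (-1.69), *Adgrg1* (-1.83) and *Crybb1* (-1.04) also fell on the log2 scale. *Siglech* loses its call without slice replicate 1 (adjusted p = 0.0514), and *Crybb1* loses it when any 1 of the 4 adult or slice 3 weeks libraries is left out (log2 fold change −1.32 to −0.80). For *Upk1b* the log2 fold change was -6.87, and −8.22 without slice replicate 2.

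**Figure D2:**
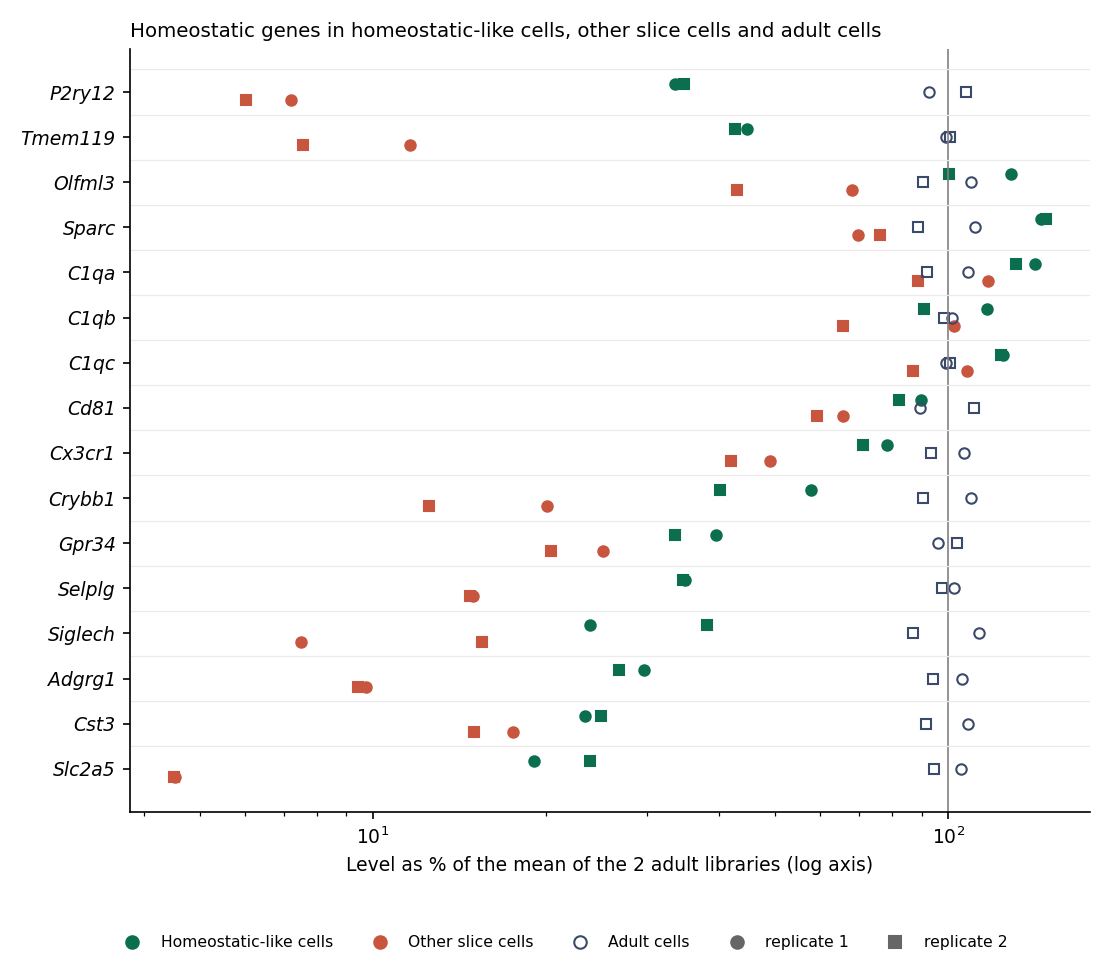
Levels of 16 homeostatic genes as a percent of the mean of the 2 adult libraries (x axis, log scale) in homeostatic-like cells (green), other slice 3 weeks cells (red) and adult cells (open), with circles for replicate 1 and squares for replicate 2. On average *Olfml3*, *Sparc* and the 3 C1q genes of the homeostatic-like cells lie between 104% (*C1qb*) and 147% (*Sparc*), *P2ry12* and *Tmem119* at 34.2% and 43.6% on average, and *Cst3* at 24.2%.

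Transcription factors of microglial identity were called about as often as genes at large. Of 18 such factors, 2 fell and 2 rose in homeostatic-like cells (22.2% called, against 26.4% of all genes, with a median log2 fold change of -0.30), while 11 fell and 2 rose in the other cells (-0.68). With library size alone 6 fell and 1 rose in homeostatic-like cells. The factors that fell were *Lyl1* (178 and 148 against 263 and 256 CPM) and *Hhex* (127 and 143 against 219.8 and 193 CPM), and those that rose were *Klf2* (93.1 and 79.4 against 22.2 and 9.51 CPM, log2 fold change 2.40 ± 0.35 (SE), adjusted p = 7.13e-04) and *Bhlhe41* (208 and 299 against 135 and 194 CPM). Only *Klf2* kept its call under every omission of a library, at a log2 fold change of 3.16 without adult replicate 1. *Lyl1* loses it without slice replicate 2 (log2 fold change −0.55), *Hhex* without adult replicate 1 (−0.52) or slice replicate 1 (−0.53), and *Bhlhe41* without adult replicate 1 (0.38) or slice replicate 2 (0.33) and with library size alone (0.48). *Sall1*, named here after its values were seen, was at 90.4 and 107 CPM in homeostatic-like cells, 43.8 and 57.5 CPM in the other cells and 141 and 121 CPM in adult cells. For *Sall1* the log2 difference from adult was -0.41 ± 0.20 (SE), adjusted p = 0.161 in homeostatic-like cells and -1.36 in the others, where it was called.

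Of 22 genes of TGF-beta signalling, 4 fell and 1 rose (22.7% called, against 26.4% of all genes, with a median log2 fold change of -0.13). The receptor *Tgfbr1* was at 206 and 284 CPM against 702 and 745 CPM (log2 fold change -1.56 ± 0.21 (SE), adjusted p = 4.84e-04). The signal transducer *Smad2* (-0.62, and not called without adult replicate 2, at −0.56, or under the replicate block, at −0.62) and the repressor *Ski* (-0.75) fell as well, and *Id2*, an inhibitor of basic helix-loop-helix factors, rose to 88.9 and 84 CPM from 31.6 and 28.8 CPM in adult cells. The *Id2* level in the other slice cells was 267 and 244 CPM. Of 11 purinergic genes other than *P2ry12*, 2 fell and 1 rose (27.3% called). The ADP receptor *P2ry13* was at 557 and 546 CPM against 1168 and 1086 CPM, and the adenosine receptor *Adora3* at 92.6 and 115 CPM against 212 and 178 CPM. The UDP receptor *P2ry6* was at 645 and 601 CPM against 519.6 and 513 CPM and did not pass (log2 fold change 0.27 ± 0.14 (SE), adjusted p = 0.171).

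Homeostatic-like cells also carried the disease-associated program. Of 31 disease-associated genes tested, 24 rose against adult and none fell, 7 did not pass (77.4% called, against 14.8% of all genes higher), and the median log2 fold change was 2.09 (the same with *Gpnmb*, which is at 0 in adult cells, at its bound) against 0 over all genes. In the other slice cells 28 rose, with a median of 2.82. With library size alone 21 rose and 1 fell in homeostatic-like cells. The list held 8.67% and 8.16% of the UMIs of homeostatic-like cells, 12.5% and 10.1% of those of the other cells and 3.7% and 3.41% of those of adult cells.

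*Apoe*, encoding the lipid carrier apolipoprotein E and named here after its values were seen, was at 18211 and 17288 CPM in homeostatic-like cells, 36750 and 24808 CPM in the other cells and 1132 and 749 CPM in adult cells (log2 fold change 4.24 ± 0.21 (SE), adjusted p = 2.24e-06). *Cst7*, encoding the cathepsin inhibitor cystatin F, was at 795 and 1407 CPM against 24.1 and 16 CPM (log2 fold change 5.77 ± 0.36 (SE), adjusted p = 6.33e-06). These 2 genes were high in both kinds of slice cell. A second set was much lower in homeostatic-like cells than in the other cells, though still above adult. *Spp1*, which encodes the secreted protein osteopontin, was at 769 and 138 CPM in homeostatic-like cells, 6846 and 1757 CPM in the others and 5.57 and 9.36 CPM in adult cells (log2 fold change 5.94 ± 0.72 (SE), adjusted p = 2.83e-04, with 4.23 without slice replicate 1 and 6.70 without slice replicate 2). *Gpnmb*, a transmembrane glycoprotein of lipid-laden macrophages, was at 35.8 and 13.7 CPM against 369.9 and 213 CPM in the other cells and had no UMI in adult cells. Against the 3 counts that 0 over both adult libraries allows, its mean was at least 158-fold higher, with bounds of 229-fold from replicate 1 alone and 87.3-fold from replicate 2 alone. Free RNA was not measured, so its part in the low *Gpnmb* levels of homeostatic-like cells was not tested. The growth factor *Igf1* was at 57.8 and 68.8 CPM, 378 and 297 CPM and 0.969 and 1.3 CPM in homeostatic-like, other and adult cells. *Trem2*, the lipid receptor upstream of the program, did not pass (3215 and 3931 against 3558 and 2895 CPM, log2 fold change 0.15 ± 0.16 (SE), adjusted p = 0.516).

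Where log2 CPM averaged 6 or more over the libraries, the largest rises outside that list included *Fn1*, *Cxcl14* and *Apoc1*. *Fn1*, encoding fibronectin, was at 153 and 69 CPM against 0.242 and 0.432 CPM in adult cells (log2 fold change 8.39 ± 0.69 (SE), adjusted p = 3.16e-05). The chemokine gene *Cxcl14* was at 97.3 and 50.3 CPM against 0.323 and 0 CPM, and the apolipoprotein gene *Apoc1* at 211 and 267 CPM against 3.39 and 0.432 CPM. *Anxa2* (6.22), *Gpx3* (6.34), *Ctla2a* (6.27) and *Rab7b* (6.04), which encode an annexin, a glutathione peroxidase, a cysteine protease inhibitor and a lysosomal GTPase, rose on the log2 scale as well. Leaving out adult replicate 1 gave log2 fold changes of 9.06 for *Apoc1*, 7.84 for *Ctla2a* and 5.24 for *Rab7b*, with 6.13 for *Apoc1* and 6.85 for *Rab7b* without adult replicate 2. *Cxcl14* was at 8.38 with all libraries and 7.75 without adult replicate 2, and no adult UMI is left without adult replicate 1. For *Fn1* the value was 7.73 without slice replicate 1. For each of these 7 genes both homeostatic-like values were above both adult values and below the value of the other cells in the same library. Over all genes, 29.6% had both homeostatic-like values above both adult values and 31.7% had them below.

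**Figure D3:**
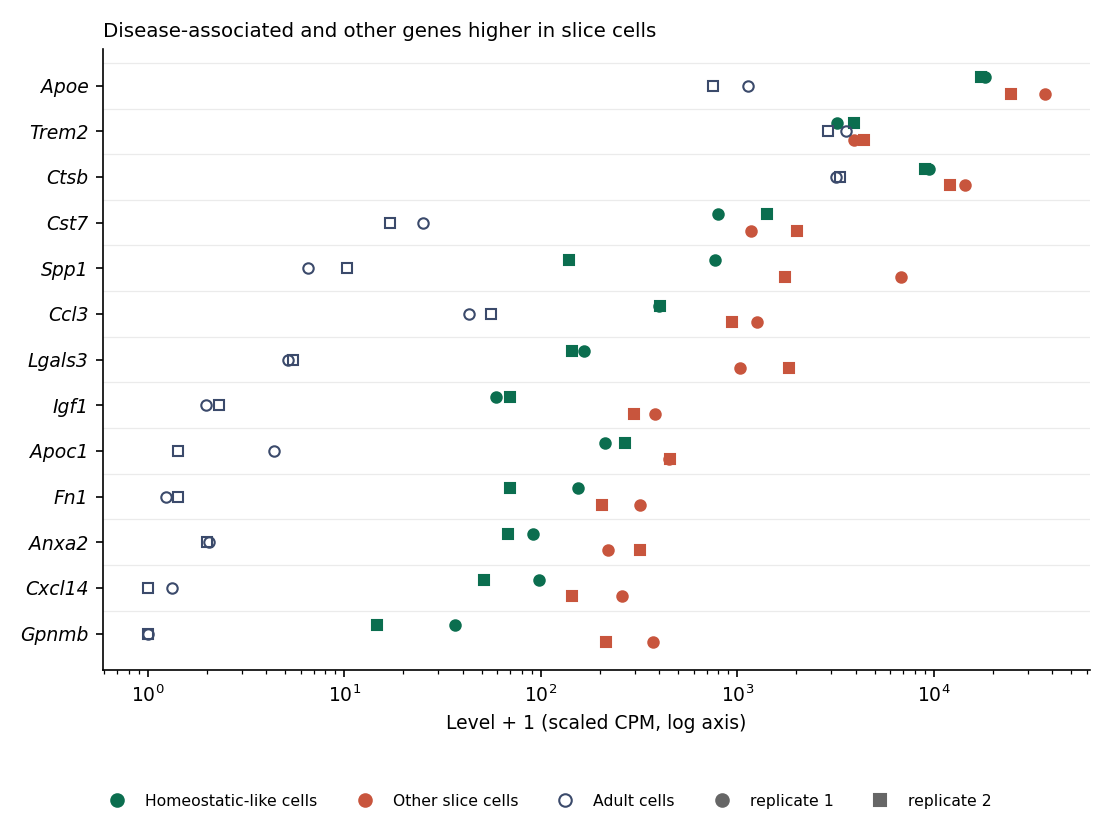
Levels of 13 genes as scaled CPM plus 1 (x axis, log scale) in homeostatic-like cells (green), other slice 3 weeks cells (red) and adult cells (open), with circles for replicate 1 and squares for replicate 2. *Apoe* and *Cst7* of the homeostatic-like cells lie below the other slice cells of the same library, but nearer to them than to adult cells. *Spp1*, *Lgals3* and *Gpnmb* lie between the other slice cells and adult cells, and *Trem2* overlaps adult.

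Under the same limit (log2 CPM averaging 6 or more), the largest falls were in genes that no list above holds, besides *Slc2a5*. *Tspan13*, a tetraspanin, was at 9.47 and 17.5 CPM against 244 and 301 CPM in adult cells (log2 fold change -4.26 ± 0.36 (SE), adjusted p = 3.46e-05). The C-type lectin receptors *Clec4a2* (7.36 and 8.09 against 140.4 and 123 CPM) and *Clec4a3* (13.7 and 10.1 against 159 and 154 CPM) were similarly reduced. *Hpgd*, which breaks down prostaglandins, was at 45.2 and 90 CPM against 597 and 733 CPM. *Slc40a1*, the iron exporter ferroportin, was at 27.3 and 29.3 CPM against 165 and 184 CPM. *Ms4a6b* (-2.49), *Tmem173* (-2.18, the DNA sensor adaptor STING), *Pid1* (-2.13) and *St3gal6* (-2.12, a sialyltransferase) made up the rest of the 10 largest falls. Without slice replicate 2 the log2 fold change was −4.85 for *Tspan13*, −3.89 for *Hpgd* and −1.90 for *Ms4a6b*, which was −3.26 without slice replicate 1. In the other slice cells *Tspan13* was at 20.2 and 25.2 CPM, *Hpgd* at 41.5 and 68 CPM and *Clec4a2* at 9.91 and 4.4 CPM, all below both adult values.

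Lysosomal and inflammatory lists moved in part, and are set beside the 26.4% of all genes called (14.8% higher and 11.6% lower). Of 35 lysosome genes 14 rose and none fell (40% called, median log2 fold change 0.37), with 1 fall under library size alone and under RLE scaling. The largest rise was in *Gla*, which encodes alpha-galactosidase A (36.3 and 31.4 against 3.96 and 4.32 CPM, log2 fold change 3.02 ± 0.23 (SE), adjusted p = 2.17e-05), followed by the proteases *Ctsl* (5684 and 5099 against 1456 and 1077 CPM), *Ctsb* (9487 and 9023 against 3179.7 and 3327 CPM) and *Ctsd* (26196 and 21671 against 11142 and 9142 CPM), while *Psap*, the saposin precursor, did not pass (3489 and 3079 against 3236 and 3336 CPM). Of 29 cytokine and NF-kB feedback genes 9 rose and 6 fell (51.7% called). Those that fell were *Il1a* (-1.89), *Il6* (-1.48), *Nfkbie* (-0.91), *Nfkb1* (-0.86), *Cd14* (-0.73) and *Birc3* (-0.69), as log2 fold changes. The chemokine genes *Ccl3* (401 and 402 against 42.1 and 55 CPM, log2 fold change 3.05 ± 0.18 (SE), adjusted p = 4.67e-06) and *Ccl4* (468 and 357 against 65.9 and 54.9 CPM) rose and were higher still in the other slice cells, at 1257 and 942 CPM and 1368 and 804 CPM. Of 20 immediate early genes, which also respond to cell dissociation, 5 rose and 4 fell (45% called). *Jun* was at 132 and 78.4 CPM against 411 and 314 CPM and *Btg2* at 83.1 and 77.9 CPM against 391 and 264 CPM, whereas *Atf3* was at 61.5 and 68.3 CPM against 12.6 and 15 CPM.

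Ribosomal protein genes rose almost as a whole, 81 of 82 with none lower (98.8%, against 14.8% of all genes higher, median log2 fold change 1.45), and took 13.3% and 18.4% of UMIs against 7.23% and 5.82% in adult cells and 14.6% and 21.4% in the other slice cells. This share differed more between the slice libraries than between the kinds of cell within a library. Of 17 glycolysis genes 11 rose and none fell (64.7%, median 1.56), with *Pkm* at 1779 and 1039.7 CPM against 281 and 309 CPM and *Ldha* at 906 and 605 CPM against 224 and 206 CPM. With library size alone 1 glycolysis gene fell. Of 59 oxidative phosphorylation genes 28 rose and none fell (47.5%, and 18 with library size alone, where 12.1% of all genes rose), and of 24 genes of cholesterol and fatty acid synthesis 11 rose and none fell (45.8%), with the desaturase *Scd2* at 75.7 and 72.8 CPM against 14.6 and 15.7 CPM. Of 32 proliferation genes 31 rose and none fell (96.9%). Their summed share was 0.293% and 0.133% against 0.0609% and 0.0649% in adult cells and 0.197% and 0.141% in the other slice cells. *Top2a*, a topoisomerase of dividing cells, was at 135 and 64.2 CPM against 5.33 and 4.03 CPM in adult cells (log2 fold change 4.34, and 3.74 without slice replicate 1). These lists rose in the other slice cells too, where 20.3% of all genes rose. There 14 glycolysis, 43 oxidative phosphorylation, 13 cholesterol and fatty acid synthesis and 30 proliferation genes were higher than in adult cells.

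**Figure D4:**
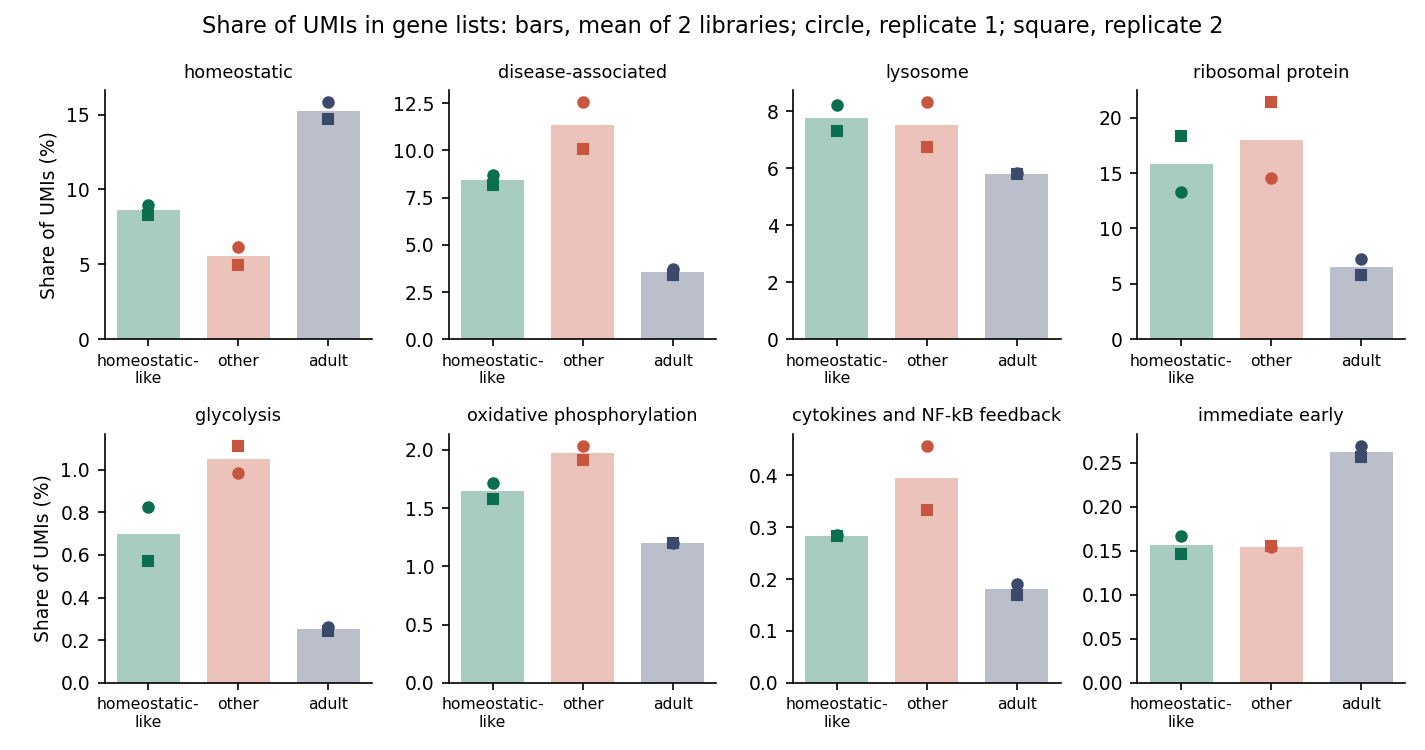
Share of UMIs in 8 gene lists (y axis, %) in homeostatic-like cells, other slice 3 weeks cells and adult cells, with bars for the mean of 2 libraries and a circle and a square for replicates 1 and 2. Homeostatic-like cells lie between the other slice cells and adult cells for the homeostatic and disease-associated lists, at 8.94% and 8.33% and 8.67% and 8.16%, while their ribosomal share of 13.3% and 18.4% lies near that of the other slice cells.

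Within the slice libraries, 701 genes were over 1.5-fold higher in homeostatic-like than in the other cells of both libraries (5.87% of those tested) and 371 were lower (3.11%), as folds of plain CPM, on which the median gene was 0.11 higher in homeostatic-like cells on the log2 scale. On CPM scaled with the TMM factors, the scale of the levels given here, the median was −0.01 and the counts became 438 higher (3.67%) and 500 lower (4.19%), so which direction had more genes depends on the scaling. The cells were chosen from these libraries, so the counts are descriptive and have no test. Of the 34 homeostatic genes 22 were higher and none lower (16 and none with TMM factors), and of the 31 disease-associated genes 12 were lower and none higher (14 and none with TMM factors). Among genes over 50 CPM in either kind of cell, the largest excess besides the 2 genes of the rule was in *Slc2a5*, *Tmem173*, *Adgrg1*, *Slc1a3*, *Siglech* and *Crybb1*. *Slc1a3*, a glutamate transporter, was at 74.7 and 78.1 CPM in homeostatic-like cells, 20.9 and 25.4 CPM in the others and 150 and 144 CPM in adult cells. The largest deficits were in *Mmp12*, *Lilr4b*, *Ttr*, *Gpnmb*, *Spp1*, *Mt2*, *Lgals3* and *Ms4a7*. The macrophage metalloproteinase gene *Mmp12* was at 8.94 and 18.2 CPM against 191 and 497 CPM, the galectin gene *Lgals3* at 166 and 143 CPM against 1034 and 1824 CPM, and the macrophage membrane gene *Ms4a7* at 15.8 and 13.9 CPM against 140.2 and 118 CPM. For *Lgals3* the adult values were 4.2 and 4.47 CPM, so homeostatic-like cells were low among slice cells and high beside adult cells.

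The same trends ran across all slice cells as the *P2ry12* and *Tmem119* share increased, and the homeostatic list stayed below its adult level. From cells under 0.05% to cells of 0.4 to 0.8%, the homeostatic list went from 4.96% to 9.65% of UMIs in replicate 1 and from 3.83% to 9.17% in replicate 2. Adult cells of the same 0.4 to 0.8% share (798 and 502 cells) held 15.3% and 14.4%. *Sparc*, as plain CPM, increased from 1027 to 4647 and from 1201 to 4293 over the same slice cells, past the 2957 and 2335 of matched adult cells. *Spp1* went the other way, from 10516 to 766 and from 2299 to 123 CPM.

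*Apoe* and *Cst3* separated slice from adult cells at a matched share of 0.4 to 0.8%, and the *Apoe* gap was much smaller at 0.2 to 0.4%. Slice cells of 0.4 to 0.8% (110 and 262 cells) had *Apoe* at 16443 and 15281 CPM, and the matched adult cells had 1247 and 1704 CPM. Slice cells of 0.2 to 0.4% (226 and 587 cells, most of the homeostatic-like cells) were at 16920.3 and 15921 CPM, so *Apoe* was nearly level across homeostatic-like cells. In adult cells it was at 9380.2 and 12372 CPM in the 81 and 47 cells of 0.2 to 0.4%, and at 466 and 249 CPM in those over 1.2%. *Cst3* in the 0.4 to 0.8% cells was at 15532 and 16862 CPM in slices and 68000 and 58788 CPM in adult. Median UMIs per cell in these bins were 5346 and 3846 in slices and 3379.5 and 1822 in adult, and the part of depth in the bins was not tested.

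**Figure D5:**
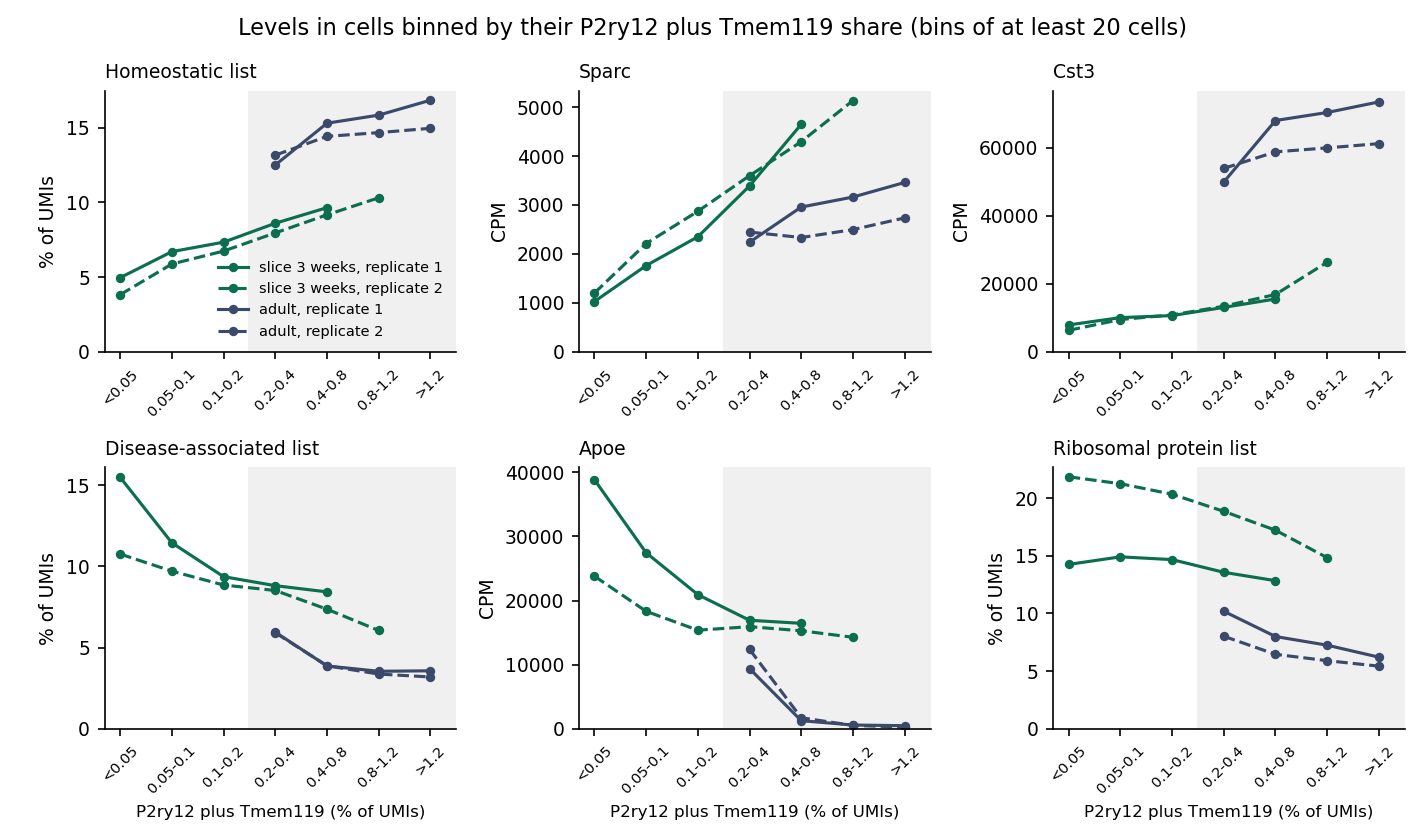
Levels (y axes, % of UMIs or plain CPM of summed UMIs) in cells binned by their *P2ry12* plus *Tmem119* share (x axes, % of UMIs) in slice 3 weeks (green) and adult libraries (blue), with solid and dashed lines for replicates 1 and 2, bins of at least 20 cells, and grey for the bins past the 0.2% threshold. In the 0.4 to 0.8% bin *Apoe* is at 16443 and 15281 CPM in slices and 1247 and 1704 CPM in adult cells. In the 0.2 to 0.4% bin it is at 16920 and 15921 CPM in slices and 9380 and 12372 CPM in adult cells.

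Single cells showed the same separation. After every cell was thinned to 1800 UMIs, which left 342 and 870 homeostatic-like cells and removed 413 and 1618 adult cells of lower depth, the range between the 5th and 95th percentile of adult cells was taken as the adult range. Only 7.89% and 4.6% of homeostatic-like cells lay in the adult range of the homeostatic list, and 92.1% and 95.4% lay below it. For the disease-associated list 5.85% and 15.4% were in range and 94.2% and 84.5% above. For *Apoe* alone 1.46% and 5.06% were in range, and for *Cst3* 0% (0 of 342 cells, which allows up to 0.877%) and 1.38%. In contrast 78.7% and 84.8% were in the adult range of the identity transcription factors and 90.6% and 87.4% in that of the immediate early genes, lists with so few UMIs per cell that the ranges are wide. Unthinned, the summed share of the homeostatic list was 8.94% and 8.33% against 15.8% and 14.7%.

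Markers of other cell types were rare in homeostatic-like cells. Summed shares of UMIs were 0.0199% and 0.0114% for 10 border macrophage markers (0.0177% and 0.0139% in adult cells, 3 of the 10 at 0 in homeostatic-like cells), 0.0153% and 0.00708% for 10 monocyte markers (8.72e-04% and 6.32e-04%, 6 at 0) and 0.0114% and 0.0117% for 13 neutrophil markers (0.0213% and 0.0181%, 8 at 0). The rise of the monocyte list rested on *Fn1*, whose values are given above, and *S100a4* (11 and 7.84 against 0.969 and 0.864 CPM). Lists for astrocytes (0.012% and 0.0106%), oligodendrocytes (0.0101% and 0.00533%), neurons (1.45e-04% and 3.22e-04%) and endothelial cells (0.00179% and 0.00149%) were similarly low. Adult replicate 1 stood apart with 0.185% of UMIs in red cell genes and *Ttr* at 683 CPM, both near 0 in adult replicate 2, and the calls without it are given with the alternatives.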

How the data were processed

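The authors deposited raw UMI counts for each gene in each barcode, 1 matrix per library, and these were analysed as they stood. The submitters' processing notes name Cell Ranger 1.3.0 and mm10, and alignment, cell calling and UMI collapsing were done there. Barcodes were kept at no more than 5% mitochondrial UMIs, at least 400 genes and no more than 30000 UMIs (19059 of 19637). No doublet caller was run, and an alternative left out the top 5% of cells by UMIs in every library. Free RNA was not measured.

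Pseudobulk totals were formed per library and kind of cell. Homeostatic-like cells of 2 libraries and all kept cells of the 8 libraries of the other groups entered 1 edgeR 4.0.16 fit (quasi-likelihood, Benjamini-Hochberg adjusted p, TMM scaling, genes passing filterByExpr at 10 counts), and the other slice cells entered a separate one. A gene was called at an adjusted p under 0.05 and over 1.5-fold, and *P2ry12* and *Tmem119* stayed out of all counts. The adjusted p of every gene in the text comes from these fits, with 5 residual degrees of freedom and a biological coefficient of variation of 16.9% with homeostatic-like cells and 18.0% with the other slice cells. The script was tested on simulated counts. Levels between homeostatic-like and other cells were described as folds of plain CPM within each library with 1 CPM added. With 2 libraries a group, values with 1 number per library have no test.

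The members and the gene lists were chosen with earlier results of these data known. Named genes were the 4 markers, the genes the study names for its homeostatic cluster, the 10 largest changes in each direction (average log2 CPM of at least 6, same direction within both study ids), up to 4 genes per list with the largest change and the 1 nearest to 0 (average log2 CPM of at least 5), and the 8 largest folds in each direction between homeostatic-like and other cells over 50 CPM. Replicate 1 and 2 of the adult and slice 3 weeks groups differ in study id, which pairs them by label. The deviations of same-numbered libraries correlated at r = 0.119 over 4332 genes, which are not independent replicates. Alternatives were another scaling, DESeq2 1.42.0, no filter, 4 libraries alone, the replicate block, the study id, omission of each library, other thresholds, thinning to 1800 UMIs, a random split of UMIs, cells with C1q genes and adult cells chosen by the same rule. Python 3.11.15 and R 4.3.3 were used.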

Additional observations from a re-analysis of the deposited data

Results flagged for a closer look

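On CPM scaled with TMM factors, 4 of 131 named genes (3.05%) lay on opposite sides of adult in the 2 kinds of slice cell. Both libraries of homeostatic-like cells were above the adult library of the same study id. Both libraries of the other cells were below the adult library of the same study id. Over all 11933 genes tested 3.63% lay on opposite sides, 203 of them in this direction and 230 in the other, so the share among the named genes is near that of all genes. The log2 ratios to adult, with 1 CPM added, were 0.38 and 0.74 in homeostatic-like cells and -0.67 and -0.22 in the other cells for *Sparc*. For *Olfml3* they were 0.23 and 0.15 in homeostatic-like cells and -0.68 and -1.07 in the other cells. For *P2ry6*, the UDP receptor, they were 0.31 and 0.23 in homeostatic-like cells and -0.40 and -0.79 in the other cells. For *Icam1*, an adhesion molecule, they were 0.09 and 0.29 in homeostatic-like cells and -0.23 and -0.46 in the other cells. Without the TMM factors *Olfml3* of replicate 2 was at 2604 CPM in homeostatic-like cells and 2634 CPM in adult cells. A gene this close to adult thus changes side with the scaling. The fitted log2 fold changes of homeostatic-like cells against adult were 0.55 for *Sparc*, 0.20 for *Olfml3*, 0.27 for *P2ry6* and 0.18 for *Icam1*, and none passed the test. The difference between the 2 kinds of cell was not tested, since the cells were divided by the rule and share their libraries and the adult libraries.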

How the results depend on the processing

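Of 131 named genes other than the 2 of the rule, 99 kept their side of the threshold under the alternatives run for single genes. None changed sign past the threshold. Under at least 1 alternative 21 lost their call, and the rest, not called in the main fit, gained a call. Counts against adult ran from 1222 to 1793 higher and 951 to 1375 lower in homeostatic-like cells when 1 library was left out (1222 and 994 without adult replicate 1), and from 1862 to 2609 and 1597 to 2380 in the other cells. With a threshold of 0.4% there were 1111 higher and 909 lower, and 1334 and 1136 when the UMIs of all homeostatic-like cells were thinned to those of the cells at 0.4% or more, an alternative added after seeing the data, as was the thinning of the other cells. With every cell thinned to 1800 UMIs there were 1268 higher and 1001 lower, and 747 and 530 between homeostatic-like and other cells. With library size alone the other cells had 3371 genes lower. The replicate block, on the 4 paired libraries, gave 1501 higher and 1234 lower in homeostatic-like cells (1309 and 1090 without it) and 2109 and 1849 in the other cells. The block changed the calls of 10 named genes, with 4 lost and 6 gained. Without a filter on low counts 1936 genes were higher and 1665 lower, and with DESeq2 1735 and 1287. Between homeostatic-like and other cells the counts became 438 higher and 500 lower with TMM factors (added after seeing the data), 92 higher and 162 lower over 2-fold, 170 and 85 among genes of at least 50 CPM, 586 lower with a threshold of 0.4%, and 1350 to 2017 higher and 793 to 924 lower when only 1 library had to pass. The share of homeostatic-like cells was 47.5% with a threshold of 0.1% and 8.92% with 0.4%, and 23.5 to 29.7% when 1 library was left out. The cause of these moves was not tested. Depth limits genes at 0 in adult cells, where no UMI in the adult libraries together leaves room for 0.156 CPM.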

Other observations

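Antigen presentation and interferon genes gave a mixed picture in homeostatic-like cells. Of 15 genes of the MHC class I list 4 fell and none rose, so 26.7% were called against 26.4% of all genes (11.6% lower). They were the immunoproteasome genes *Psmb8* (214 and 198 against 313 and 314 CPM in adult cells), *Psmb9* (53.6 and 48.1 against 104 and 99.1 CPM) and *Psmb10* (106 and 82.7 against 153 and 158 CPM) and the peptide transporter gene *Tap2* (66.3 and 57.7 against 113 and 122 CPM). *Psmb8* and *Psmb10* lose their calls without slice replicate 2 (log2 fold change −0.56 and −0.57). Of 9 genes of the MHC class II list 4 fell (44.4% called), among them the invariant chain *Cd74* (49.4 and 44.5 against 128 and 116 CPM), which loses its call without adult replicate 1 (−1.32) or slice replicate 2 (−1.31) and with adult cells chosen by the same rule (−0.87). *H2-Ab1* was at 48.9 and 78.9 CPM against 45.4 and 31.8 CPM and did not pass.

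Of 29 interferon-stimulated genes 3 rose and 6 fell, so 31.0% were called against 26.4% of all genes. Those that fell were *Gbp2* (-2.60), *Gbp7* (-2.39), *Gbp3* (-1.84), *Ifit3* (-1.70), *Rtp4* (-1.22) and *Xaf1* (-0.77), as log2 fold changes. Those that rose were *Ifi27l2a* (238 and 273 against 48.8 and 17.7 CPM, log2 fold change 2.93, and 3.84 without adult replicate 1), *Lgals3bp* (344 and 297 against 173 and 121 CPM) and *Bst2* (292 and 302 against 209.8 and 161 CPM). *Lgals3bp* loses its call without adult replicate 2 (0.88), and *Bst2* without adult replicate 2 (0.49) or slice replicate 2 (0.64) and with library size alone (0.54). Of 10 markers of border macrophages 4 rose and none fell (40% called, and 1 fell with library size alone). *Folr2* was at 51 and 18.7 CPM against 1.05 and 1.3 CPM, and the mannose receptor *Mrc1* at 7.36 and 9.86 CPM against 4.84 and 3.75 CPM. The call of *Mrc1* is lost without adult replicate 1 (1.23), adult replicate 2 (0.87) or slice replicate 2 (0.74) and under the replicate block (1.02). *Pf4* was at 17.4 and 2.02 CPM in homeostatic-like cells and 99.1 and 21.7 CPM in the other slice cells.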
